A study of Mus musculus with 4 samples.

Results

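Described here are 36 mouse genes that take up fatty acids, burn them in mitochondria and peroxisomes, dissipate or limit that process, or restrain pyruvate use. They are a list of symbols drawn up with earlier results of these data known, and all 36 were found among the 32285 genes counted. RNA was measured in single nuclei with the 10x Genomics 3′ v3 assay, which counts each captured transcript once by its unique molecular identifier (UMI), in hearts of C57BL/6 mice aged 6 months. There was 1 library for each of 4 genotypes, each from 3 pooled hearts: the homozygous Rbm20 mutation after correction by gene editing (Rbm20_homo_corrected, the corrected library below), the homozygous mutation (Rbm20_homo), the heterozygous mutation (Rbm20_het) and wild type (WT). The labels give neither the base change nor how or when the editor was delivered. RBM20 is a splicing factor of heart muscle, and mutations in it cause dilated cardiomyopathy. The design asks how far the mutation, in 1 copy or in both, and its correction go with changes in each cell type.

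The adult heart draws most of its energy from long-chain fatty acids. These are released from lipoproteins at the capillary wall, taken up and bound in the cytosol, activated to acyl-CoA, carried into mitochondria as carnitine esters, and shortened by repeated rounds of dehydrogenation, hydration, dehydrogenation and thiolysis, with electrons passed to the respiratory chain through the electron transfer flavoprotein. Malonyl-CoA blocks entry at the carnitine step, and many genes of the pathway are targets of the nuclear receptors PPARα and ERR, which recognise the sequence AGGTCA in single or repeated form.

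The corrected library held 51422456 UMIs in 15153 barcodes, Rbm20_homo 52370368 in 11611, Rbm20_het 42375104 in 9734 and WT 37180792 in 9494. The protocol text calls the material total cardiac nuclei but also mentions CD45+ immune cells, and nuclei of muscle, vessel wall, connective tissue and immune lineages were all found. Pairs of libraries shared 26 to 56 barcodes. Library labels were used to choose variable genes and to remove doublets, but not in the clustering itself. Clusters were named from markers, with the suffix "like". Ventricular cardiomyocyte-like nuclei numbered 3052 in the corrected library, 2919 in Rbm20_homo, 2377 in Rbm20_het and 2909 in WT. They came from 2 clusters. The first, in which 14 of 14 ventricular markers were enriched, held 2789 corrected, 60 Rbm20_homo, 2240 Rbm20_het and 2857 WT nuclei. The second, in which 7 of 14 markers were enriched, held 263 corrected, 2859 Rbm20_homo, 137 Rbm20_het and 52 WT nuclei, so that nearly all Rbm20_homo cardiomyocytes lay apart from the rest. The 14 markers summed to 67276 counts per 1e6 UMIs (CPM) in the corrected library, 57858 in Rbm20_homo, 62458 in Rbm20_het and 69467 in WT, so these markers were abundant in every library. UMIs were summed over these nuclei and scaled to CPM of non-mitochondrial UMIs.

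Rbm20 itself stood at 4713 CPM in the corrected library, 3813 in Rbm20_homo, 4574 in Rbm20_het and 4555 in WT, a level that does not check the mutation. Added features named for a base editor (ABE) had 8455 UMIs in the corrected library and 0 in each of the others. Malat1, an abundant nuclear RNA, took 15.4% of UMIs in the corrected library, 24.2% in Rbm20_homo, 15.4% in Rbm20_het and 14.5% in WT. The median mitochondrial share per nucleus was 0.177% in the corrected library, 0.0890% in Rbm20_homo, 0.204% in Rbm20_het and 0.166% in WT. Over 13047 genes the median log2 ratio of Rbm20_homo over WT was -0.19 by CPM and -0.01 with TMM scaling, and member values are read against that shift. The 5 atrial markers summed to 38.5 CPM in the corrected library, 899 in Rbm20_homo, 33.4 in Rbm20_het and 15.4 in WT. Sln and Bmp10 were at 0 in all 4 libraries. Only 2 of the 5 had enough UMIs for a ratio of Rbm20_homo over WT. The 8 fibroblast markers summed to 217 CPM in the corrected library, 275 in Rbm20_homo, 192 in Rbm20_het and 143 in WT, and the 4 adipocyte markers to at most 1.37 CPM. Sums lowest in Rbm20_homo and highest in WT, as for most members, included those of the 8 pericyte markers, at 317 CPM in the corrected library, 146 in Rbm20_homo, 219 in Rbm20_het and 375 in WT, and of the 6 lymphatic endothelial markers, at 140.4 CPM in the corrected library, 73.4 in Rbm20_homo, 128 in Rbm20_het and 143 in WT. Single markers of these lists were mixed in Rbm20_homo over WT at the 1.5-fold threshold given below. Of 6 measured pericyte markers 1 was higher and 2 were lower. Of 5 measured lymphatic endothelial markers 3 were higher and 1 was lower, so the sum does not stand for most of them. The part of Malat1, mitochondrial RNA and these markers in the results was not tested. Each genotype is 1 library, so differences are between libraries and could not be tested, and every interval is a 95% interval for counting error only.

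Promoters are shown for a gene with a low ratio, for one that stood apart in Rbm20_het and for a pair of neighbours with like ratios, taken from RefSeq on build GRCm38.p6. Ucp3 (uncoupling protein 3) lies on chromosome 7 at 100472990 to 100486432, upstream of Ucp2 on the same strand, and had the lowest well-measured ratio of Rbm20_homo over WT. Acsl6 (an acyl-CoA synthetase) lies on chromosome 11 at 54303798 to 54364756 and was the member that stood apart in Rbm20_het. Hadha and Hadhb encode both subunits of the mitochondrial trifunctional protein and start head to head on chromosome 5, with 85 bases between their starts. The first 2 sequences are the 250 bases before the RefSeq start on the plus strand, chr7:100472741-100472990 and chr11:54303574-54303823, with AGGTCA or its reverse complement in capitals. The last is the whole gap, chr5:30155163-30155247 on the plus strand, with the GC box GGGCGG in capitals.
Ucp3: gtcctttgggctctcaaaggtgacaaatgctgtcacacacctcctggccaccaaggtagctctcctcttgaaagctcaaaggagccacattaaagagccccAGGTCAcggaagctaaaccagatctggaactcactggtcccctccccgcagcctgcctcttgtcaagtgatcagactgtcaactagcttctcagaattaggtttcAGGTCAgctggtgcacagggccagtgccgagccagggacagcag
Acsl6: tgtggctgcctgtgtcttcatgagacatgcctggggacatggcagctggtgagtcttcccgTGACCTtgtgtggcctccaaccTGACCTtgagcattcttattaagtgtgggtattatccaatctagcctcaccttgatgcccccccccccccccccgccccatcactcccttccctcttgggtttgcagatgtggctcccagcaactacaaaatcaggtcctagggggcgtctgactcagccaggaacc
Hadha-Hadhb: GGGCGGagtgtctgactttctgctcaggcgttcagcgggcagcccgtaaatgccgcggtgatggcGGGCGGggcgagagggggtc

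Ucp3 holds AGGTCA at 149 and at 44 bases before its start. Acsl6 holds the reverse complement at 189 and 167 bases before its start. Among 37 RefSeq promoter windows of 300 bases (250 before to 50 after a start) for 31 members, 8 held AGGTCA on either strand (21.6%), against 16.3% of 32851 windows of all genes. The extended AAGGTCA, which contains AGGTCA, was in 3 of the 37 windows against 4.72% of all windows. The GC box GGGCGG was in 25 of 37 (67.6%) against 35.7%. A match is only a run of letters in this window.

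Most of the 36 genes were lower in Rbm20_homo cardiomyocytes. Summed over all members they made up 6091 CPM in the corrected library, 3966 in Rbm20_homo, 5877 in Rbm20_het and 6897 in WT. A gene is called higher or lower here at a CPM ratio of at least 1.5-fold, with at least 50 UMIs in the pair of libraries. In Rbm20_homo over WT, 29 of 36 members were lower, against 22.4% of all genes, and 0 were higher, against 11.9%. The median member log2 ratio was -1.05 against -0.19 for all genes. With TMM scaling the background was 15.2% lower and 16.3% higher, and 26 members were lower. Echs1, Etfdh and Acot2 then fell under 1.5-fold.

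Differences were smaller in the other comparisons. In Rbm20_het over WT, 5 of 36 members were lower (all genes 7.44%) and 1 was higher (5.61%), with a median of -0.33 against -0.06 for all genes. For the corrected library over Rbm20_homo, 23 of 35 members were higher (15.5%) and 0 were lower (10.2%), with a median of 0.73 against 0.11. For the corrected library over WT, 4 of 36 were lower (9.00%) and 0 were higher (6.32%), with a median of -0.29 against -0.06. The 4 of 36, or 11.1%, is near the share of all genes. These comparisons share libraries, WT in 3 of them and Rbm20_homo in 2, so they are not independent. By level, Rbm20_homo was the lowest library for 33 of 36 members and WT the highest for 30. The exceptions to Rbm20_homo as the lowest were Fabp3, Ucp2 and Pdk4. The corrected library lay between Rbm20_homo and WT for 30 members and Rbm20_het for 31.

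**Figure D1:**
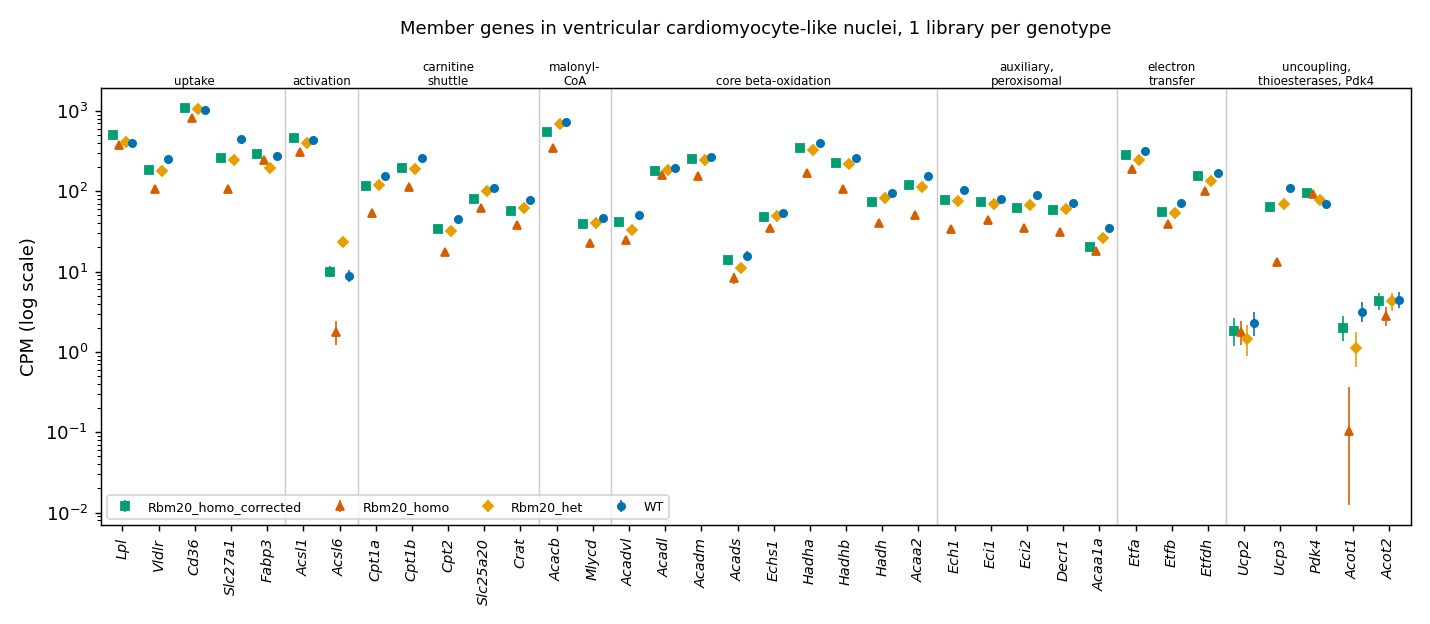
Level of each member in ventricular cardiomyocyte-like sums (CPM, log scale), 1 point per library with its 95% counting interval, members grouped by step. The Rbm20_homo triangles are lowest for 33 of 36 genes, with Ucp3, Acsl6 and Acot1 farthest below the other libraries, while Lpl and Pdk4 lie close together. Heights of different genes are not comparable, since CPM is not corrected for gene length.

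**Figure D2:**
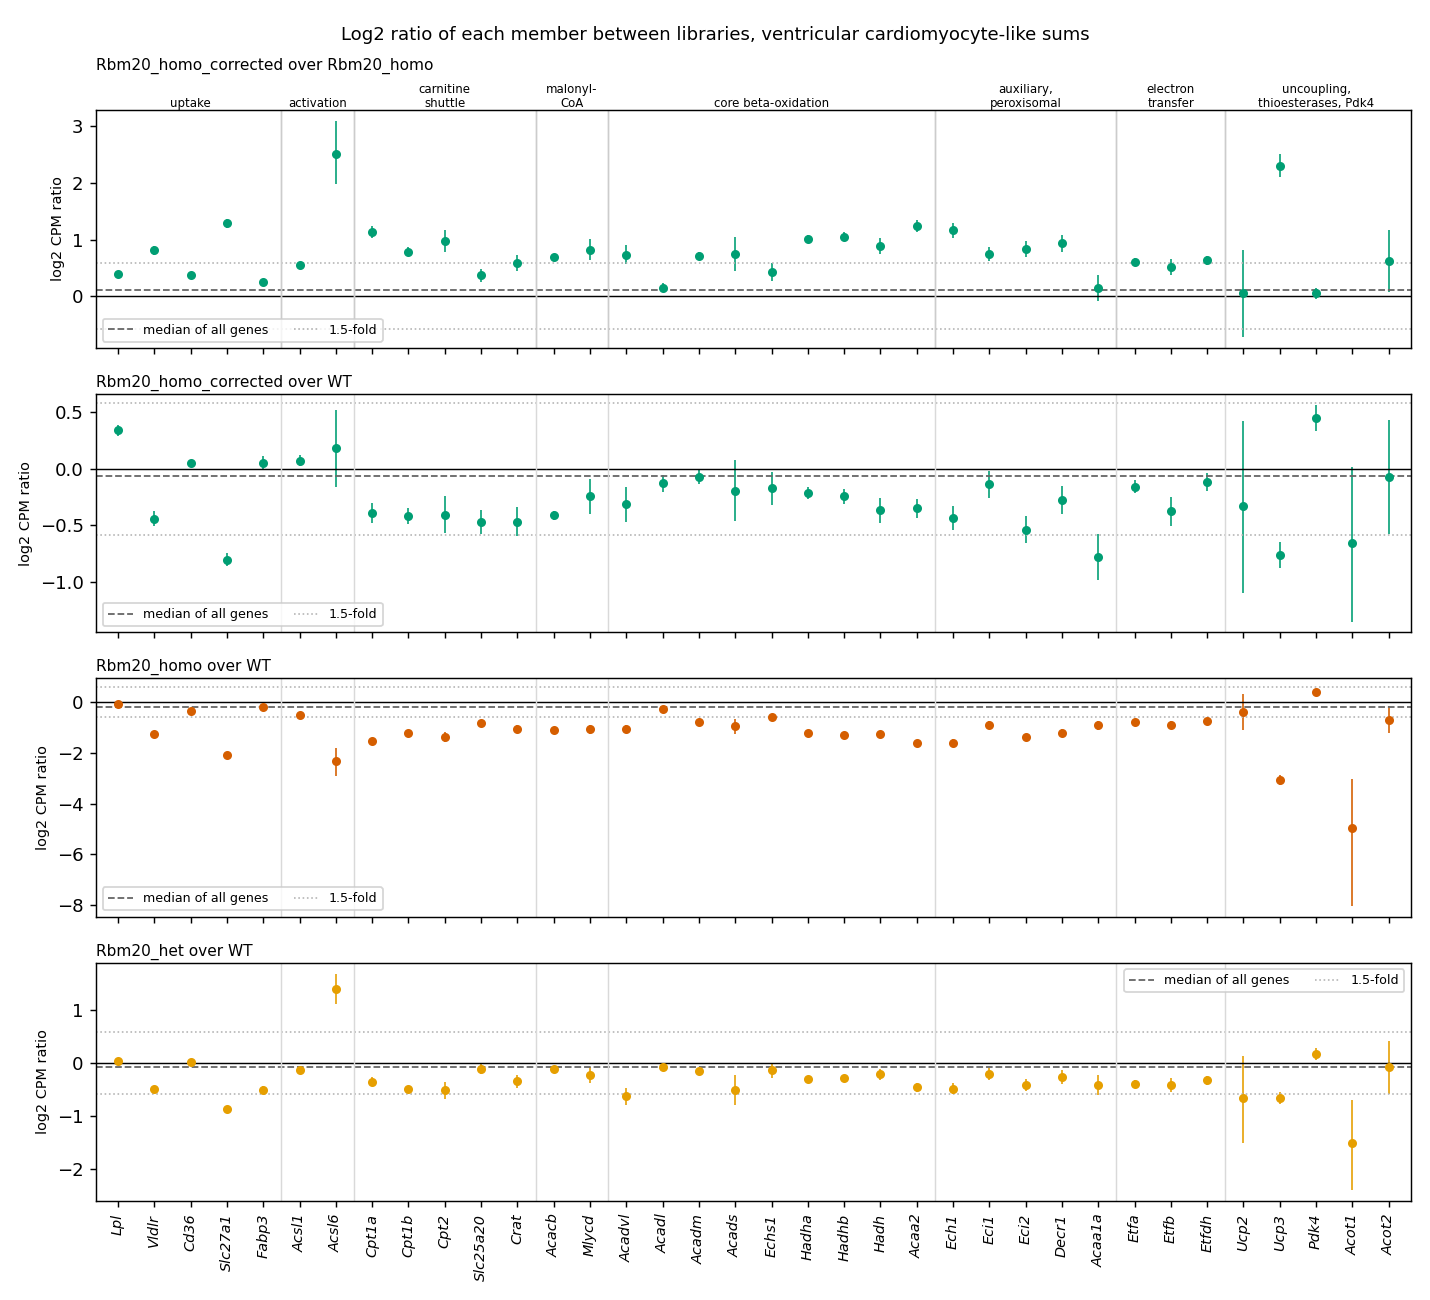
Log2 CPM ratio of each member in the 4 comparisons, with 95% counting intervals, the median of all genes (dashed) and the 1.5-fold lines (dotted). In Rbm20_homo over WT 29 of 36 points lie below the lower dotted line, and in the corrected library over WT 4 do. Those 4 are near the share of all genes. Vertical scales differ between panels.

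Of the 5 genes of release and uptake, Vldlr and Slc27a1 were lower in Rbm20_homo than in WT and the others were not past 1.5-fold, with a median of -0.33. Lpl, the lipase that frees fatty acids from circulating lipoproteins, stood at 501 CPM in the corrected library, 381 in Rbm20_homo, 407 in Rbm20_het and 395 in WT. Its log2 ratio of Rbm20_homo over WT was -0.05 by CPM and 0.12 with TMM scaling, so its direction depends on the scaling. Cd36, the fatty acid translocase of the plasma membrane, was at 1074, 825, 1060.0 and 1038 CPM in the corrected, Rbm20_homo, Rbm20_het and WT libraries, a log2 ratio of -0.33 for Rbm20_homo over WT, under 1.5-fold. Fabp3, the cytosolic fatty acid carrier of heart, was lowest in Rbm20_het, with 287 CPM in the corrected library, 243 in Rbm20_homo, 196 in Rbm20_het and 277 in WT.

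Slc27a1 (fatty acid transport protein 1) was the uptake gene with the widest spread, at 257 CPM in the corrected library, 105 in Rbm20_homo, 245 in Rbm20_het and 448 in WT. WT stood far above the other libraries, and the corrected library was close to Rbm20_het. Its log2 ratio was -2.09 (interval -2.16 to -2.02) in Rbm20_homo over WT, a 4.25-fold lower level, and -0.80 (-0.86 to -0.75) in the corrected library over WT. Vldlr, the receptor that binds triglyceride-rich lipoproteins, stood at 186, 106, 179.7 and 252 CPM in the corrected, Rbm20_homo, Rbm20_het and WT libraries. Its log2 ratio was -1.25 in Rbm20_homo over WT and 0.81 in the corrected library over Rbm20_homo.

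Activation to acyl-CoA is represented by a pair of synthetases, of which Acsl6 was lower in Rbm20_homo than in WT and Acsl1 was not past 1.5-fold. Acsl1, the main long-chain synthetase of heart, stood at 455 CPM in the corrected library, 309 in Rbm20_homo, 397 in Rbm20_het and 433 in WT, a log2 ratio of -0.49 in Rbm20_homo over WT, under 1.5-fold. Acsl6, best known from brain, was scarce, with 155 UMIs (9.99 CPM) in the corrected library, 34 (1.75 CPM) in Rbm20_homo, 357 (23.3 CPM) in Rbm20_het and 140 (8.81 CPM) in WT. Rbm20_het was highest and Rbm20_homo lowest, with the corrected library near WT. The log2 ratio was -2.34 (-2.92 to -1.79) in Rbm20_homo over WT and 1.40 (1.12 to 1.70) in Rbm20_het over WT. Acsl6 was the 1 member higher in any comparison with WT in cardiomyocyte-like sums. Gm12224, an antisense gene that overlaps Acsl6 over 13111 bases, had 2.51, 1.23, 5.68 and 2.89 CPM in the corrected, Rbm20_homo, Rbm20_het and WT libraries. Whether reads were assigned by strand is not given in the sources used here, so reads of these genes may not be told apart.

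All 5 genes of the carnitine shuttle, which moves acyl groups across the mitochondrial membranes, were lower in Rbm20_homo than in WT, with a median log2 ratio of -1.20. Cpt1a and Cpt1b, the liver-type and muscle-type forms of the outer-membrane acyltransferase, are both expressed in heart. Cpt1a stood at 118 CPM in the corrected library, 53.6 in Rbm20_homo, 121 in Rbm20_het and 154 in WT. Cpt1b stood at 196 CPM in the corrected library, 114 in Rbm20_homo, 187 in Rbm20_het and 261 in WT. The log2 ratio of Rbm20_homo over WT was -1.52 (-1.63 to -1.42) for Cpt1a and -1.20 (-1.28 to -1.13) for Cpt1b. For both genes Rbm20_homo was lowest and WT highest, with the corrected library and Rbm20_het near each other between them. Cpt2, the inner-membrane acyltransferase, followed at 34.1, 17.4, 31.7 and 45.1 CPM in the corrected, Rbm20_homo, Rbm20_het and WT libraries. Slc25a20, the carrier that exchanges acylcarnitine for carnitine, stood at 79.2 CPM in the corrected library, 61.4 in Rbm20_homo, 102 in Rbm20_het and 109.7 in WT, and its ratio of the corrected library over Rbm20_homo, 0.37, was under 1.5-fold. Crat, which buffers acetyl-CoA as acetylcarnitine, stood at 56.4 CPM in the corrected library, 37.7 in Rbm20_homo, 61.5 in Rbm20_het and 77.9 in WT. Slc25a20 and Crat were the carnitine genes that stayed under 1.5-fold in the corrected library over Rbm20_homo.

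Both opposed enzymes of malonyl-CoA were lower in Rbm20_homo. Acacb makes malonyl-CoA at the mitochondrial surface, where it inhibits the carnitine acyltransferase, and Mlycd degrades it. Acacb stood at 553 CPM in the corrected library, 341 in Rbm20_homo, 686 in Rbm20_het and 735 in WT. Mlycd stood at 39.5 CPM in the corrected library, 22.4 in Rbm20_homo, 40.1 in Rbm20_het and 46.7 in WT. The log2 ratio in Rbm20_homo over WT was -1.11 (-1.15 to -1.07) for Acacb and -1.06 (-1.24 to -0.89) for Mlycd, intervals that overlap.

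Of the 9 core enzymes of mitochondrial beta-oxidation, 8 were lower in Rbm20_homo than in WT, with a median log2 ratio of -1.05. The acyl-CoA dehydrogenases, which carry out the first step and are named for the chain length they prefer, ranged widely. Acadl (long chain) stood at 177 CPM in the corrected library, 159 in Rbm20_homo, 185 in Rbm20_het and 193 in WT, and was the 1 core enzyme under 1.5-fold, at -0.28. Acadm (medium chain) stood at 255 CPM in the corrected library, 156 in Rbm20_homo, 242 in Rbm20_het and 268 in WT, at -0.78. Acadvl (very long chain) stood at 41.2 CPM in the corrected library, 24.8 in Rbm20_homo, 33.3 in Rbm20_het and 51.2 in WT, at -1.05. Acadvl was also lower in Rbm20_het over WT, at -0.62 (-0.78 to -0.46), the 1 core enzyme past 1.5-fold there, and at -0.56 with TMM scaling, under 1.5-fold. Acads (short chain) was at -0.94 with 160 UMIs in Rbm20_homo and 251 in WT.

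The later steps are hydration, a second dehydrogenation and thiolysis. Hadha, the trifunctional subunit with hydratase and dehydrogenase activity, stood at 342 CPM in the corrected library, 169 in Rbm20_homo, 325 in Rbm20_het and 397 in WT. Hadhb, its thiolase subunit, stood at 222 CPM in the corrected library, 107 in Rbm20_homo, 216 in Rbm20_het and 262 in WT. These head-to-head neighbours had nearly equal ratios in each comparison: -1.23 and -1.29 in Rbm20_homo over WT, -0.29 and -0.28 in Rbm20_het over WT, 1.02 and 1.05 in the corrected library over Rbm20_homo, and -0.22 and -0.24 in the corrected library over WT, Hadha first. Acaa2, the mitochondrial thiolase of medium chains, had the lowest ratio of the core enzymes, with 120.4 CPM in the corrected library, 51.0 in Rbm20_homo, 112 in Rbm20_het and 153 in WT, at -1.59 (-1.70 to -1.48). Hadh, the hydroxyacyl-CoA dehydrogenase of shorter chains, was at -1.25. Echs1, the short-chain hydratase, was just past the threshold at -0.60 (-0.75 to -0.45).

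The auxiliary enzymes, which handle double bonds of unsaturated fatty acids, were lower in Rbm20_homo by as much as the core enzymes. All 5 auxiliary and peroxisomal genes were lower, with a median of -1.21. Ech1, which shifts conjugated double bonds, stood at 76.6 CPM in the corrected library, 34.3 in Rbm20_homo, 74.6 in Rbm20_het and 104 in WT, a log2 ratio of -1.59 (-1.73 to -1.46) in Rbm20_homo over WT. The isomerases Eci1 and Eci2 (overlapped by the antisense gene Gm16984 over 12705 bases) were at -0.88 and -1.37, and Decr1, the dienoyl-CoA reductase, at -1.21. Acaa1a, a peroxisomal thiolase, stood at 20.1 CPM in the corrected library, 18.2 in Rbm20_homo, 25.9 in Rbm20_het and 34.4 in WT. The corrected library was thus close to Rbm20_homo for Acaa1a, with a log2 ratio of 0.14 (-0.08 to 0.37), and lower than WT at -0.77. Acaa1a lies wholly within Slc22a14 on the other strand, which had 19.7 CPM in the corrected library, 12.2 in Rbm20_homo, 13.3 in Rbm20_het and 29.6 in WT, and its longest transcript shares 23.9% of its 90-base stretches with that of Acaa1b, so its counts are uncertain.

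The 3 genes of electron transfer were lower in Rbm20_homo by CPM, within a narrow range. Etfdh was under 1.5-fold with TMM scaling, and Etfa also with median-of-ratios scaling. Etfa and Etfb, the subunits of the electron transfer flavoprotein, and Etfdh, which passes the electrons to ubiquinone, had log2 ratios of -0.76, -0.89 and -0.75 over WT. Etfa stood at 284 CPM in the corrected library, 187 in Rbm20_homo, 244 in Rbm20_het and 317 in WT. Over Rbm20_homo, the corrected library was at 0.60 for Etfa, 0.63 for Etfdh and 0.51 for Etfb, of which Etfb was under 1.5-fold. With TMM scaling all 3 were under 1.5-fold there.

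The last group, of uncoupling proteins, thioesterases and the pyruvate dehydrogenase kinase Pdk4, held both ends of the range. Ucp3, a mitochondrial carrier of muscle known to follow fatty acid supply, had 999 UMIs (64.4 CPM) in the corrected library, 254 (13.04 CPM) in Rbm20_homo, 1058 (69.1 CPM) in Rbm20_het and 1733 (109 CPM) in WT. Rbm20_homo was far below the other libraries, and the corrected library lay beside Rbm20_het. The log2 ratio was -3.06 (-3.26 to -2.87) in Rbm20_homo over WT, an 8.36-fold lower level. It was 2.30 (2.10 to 2.51) in the corrected library over Rbm20_homo, -0.76 (-0.87 to -0.65) in the corrected library over WT, and -0.66 (-0.77 to -0.55) in Rbm20_het over WT. Gm10603, an antisense gene over 1857 bases of Ucp3, was also lowest in Rbm20_homo, at 9.35 CPM in the corrected library, 3.90 in Rbm20_homo, 10.2 in Rbm20_het and 9.81 in WT, and the limit on strand given for Acsl6 holds here too. Ucp3 was also among the leading genes of the first cardiomyocyte cluster. That cluster was drawn from the same counts and held few Rbm20_homo nuclei, so this adds no separate evidence. Ucp2, its neighbour 6904 bases downstream, was scarce in cardiomyocytes, with 28, 34, 22 and 36 UMIs in the corrected, Rbm20_homo, Rbm20_het and WT libraries, too few to order them.

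Pdk4 is the kinase that shuts off pyruvate dehydrogenase when fatty acids are burned. In cardiomyocyte-like sums it was the 1 member with a positive log2 ratio of Rbm20_homo over WT by CPM. It stood at 95.3 CPM in the corrected library, 92.0 in Rbm20_homo, 78.8 in Rbm20_het and 69.7 in WT, and WT was lowest. The log2 ratio of Rbm20_homo over WT was 0.40 (0.29 to 0.51), under 1.5-fold, and that of the corrected library over WT was 0.45 (0.34 to 0.56). Acot1, a cytosolic thioesterase, had 31 UMIs in the corrected library, 2 in Rbm20_homo, 17 in Rbm20_het and 50 in WT. Its log2 ratio of Rbm20_homo over WT was -4.94, with an interval of -8.02 to -3.01 because only 2 UMIs stand behind it. Acot2, the mitochondrial thioesterase next to it, had 66, 54, 65 and 71 UMIs in the corrected, Rbm20_homo, Rbm20_het and WT libraries, and its log2 ratio of Rbm20_homo over WT was -0.69. The longest transcripts of Acot1 and Acot2 share 17.8% and 18.5% of their 90-base stretches but 0% in the last 400 bases, near which the 3′ assay reads.

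**Figure D3:**
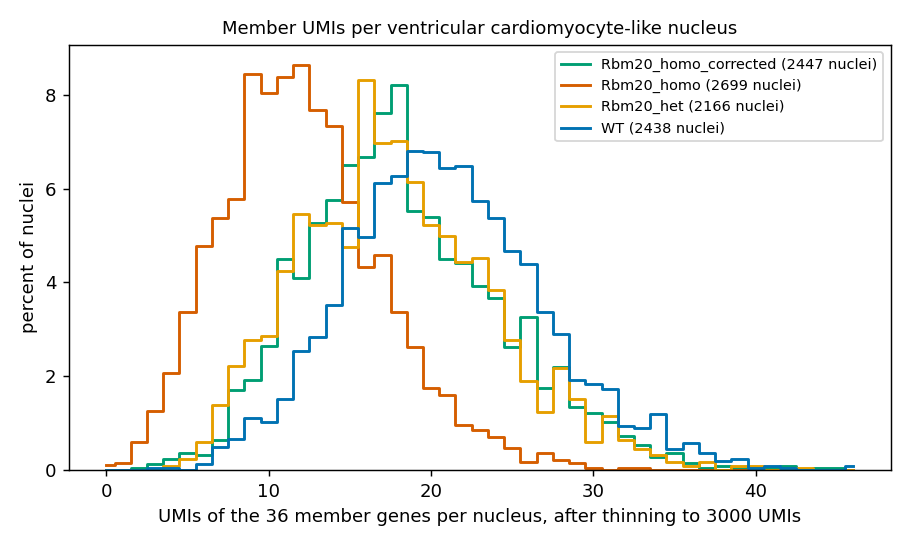
Distribution of the summed UMIs of the 36 members per ventricular cardiomyocyte-like nucleus (x axis, after thinning every nucleus to 3000 UMIs) as percent of nuclei (y axis), 1 line per library. The Rbm20_homo line peaks to the left of the others, with a median of 12 against 18, 17 and 20.5 in the corrected, Rbm20_het and WT libraries.

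The lower sum in Rbm20_homo was spread over most nuclei. After thinning to 3000 UMIs per nucleus, which left out 605, 220, 211 and 471 shallower nuclei of the corrected, Rbm20_homo, Rbm20_het and WT libraries, the median nucleus held 18, 12, 17 and 20.5 member UMIs. The quartiles were 14 to 22 in the corrected library, 9 to 15 in Rbm20_homo, 13 to 22 in Rbm20_het and 17 to 25 in WT. Of Rbm20_homo nuclei 82.0% lay under the lower quartile of WT, against 40.8% of corrected, 43.4% of Rbm20_het and 24.0% of WT nuclei. Without thinning the medians were 26 in the corrected library, 23 in Rbm20_homo, 34 in Rbm20_het and 34 in WT. Leaving Malat1 out of the denominator, the mean was 7.22 member UMIs per 1000 in the corrected library, 5.24 in Rbm20_homo, 7.01 in Rbm20_het and 8.10 in WT. Nuclei of 1 library are not replicates, so these are descriptions of each library.

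Other genes of fatty acid metabolism followed, with medians nearer to those of all genes than the members had in each comparison. Of a list of 42 such genes outside the 36, 36 were measured in cardiomyocyte-like sums. Rbm20_homo over WT had 19 lower (all genes 22.4%) and 1 higher (11.9%), with a median of -0.62, against -1.05 for the members and -0.19 for all genes. In Rbm20_het over WT 4 of the 36 were lower (7.44%) and 0 higher (5.61%), with a median of -0.15, and 4 of 36 is near the share of all genes. The corrected library over Rbm20_homo had 11 higher (15.5%) and 0 lower (10.2%), with a median of 0.39. Over WT the corrected library had 7 lower (9.00%), against 4 of the members, and 0 higher (6.32%), with a median of -0.23. Slc22a5, the carnitine transporter of the plasma membrane, stood at 61.2, 36.2, 99.3 and 119 CPM in the corrected, Rbm20_homo, Rbm20_het and WT libraries, a log2 ratio of -1.72 in Rbm20_homo over WT. Slc25a42, the mitochondrial carrier of coenzyme A, stood at 98.0 CPM in the corrected library, 55.96 in Rbm20_homo, 88.2 in Rbm20_het and 174 in WT, at -1.63. Acsl3, a synthetase, and Acot7, a thioesterase, were at -1.71 and -1.33.

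Across cell types the pathway was mostly a cardiomyocyte one. Cardiomyocyte-like sums had the highest level among the classes compared for 31 of 36 members in the corrected library, 24 in Rbm20_homo, 29 in Rbm20_het and 31 in WT. Cd36 and Ucp2 were among the exceptions. For Cd36 endothelial-like nuclei were highest in all 4 libraries, at 1610.5, 1611, 1453 and 1429 CPM in the corrected, Rbm20_homo, Rbm20_het and WT libraries. Ucp2, scarce in cardiomyocytes, was highest in macrophage-like nuclei in all 4 libraries, at 54.3 CPM in the corrected library, 93.0 in Rbm20_homo, 66.3 in Rbm20_het and 54.7 in WT. Cardiomyocyte markers were also counted in the other classes. The 14 markers summed to 6.61% to 9.42% of the cardiomyocyte level in fibroblast-like sums and to 11.9% to 14.7% in endothelial-like sums. The source of this marker RNA, and how much of a member's level in another class came with it, was not tested.

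**Figure D4:**
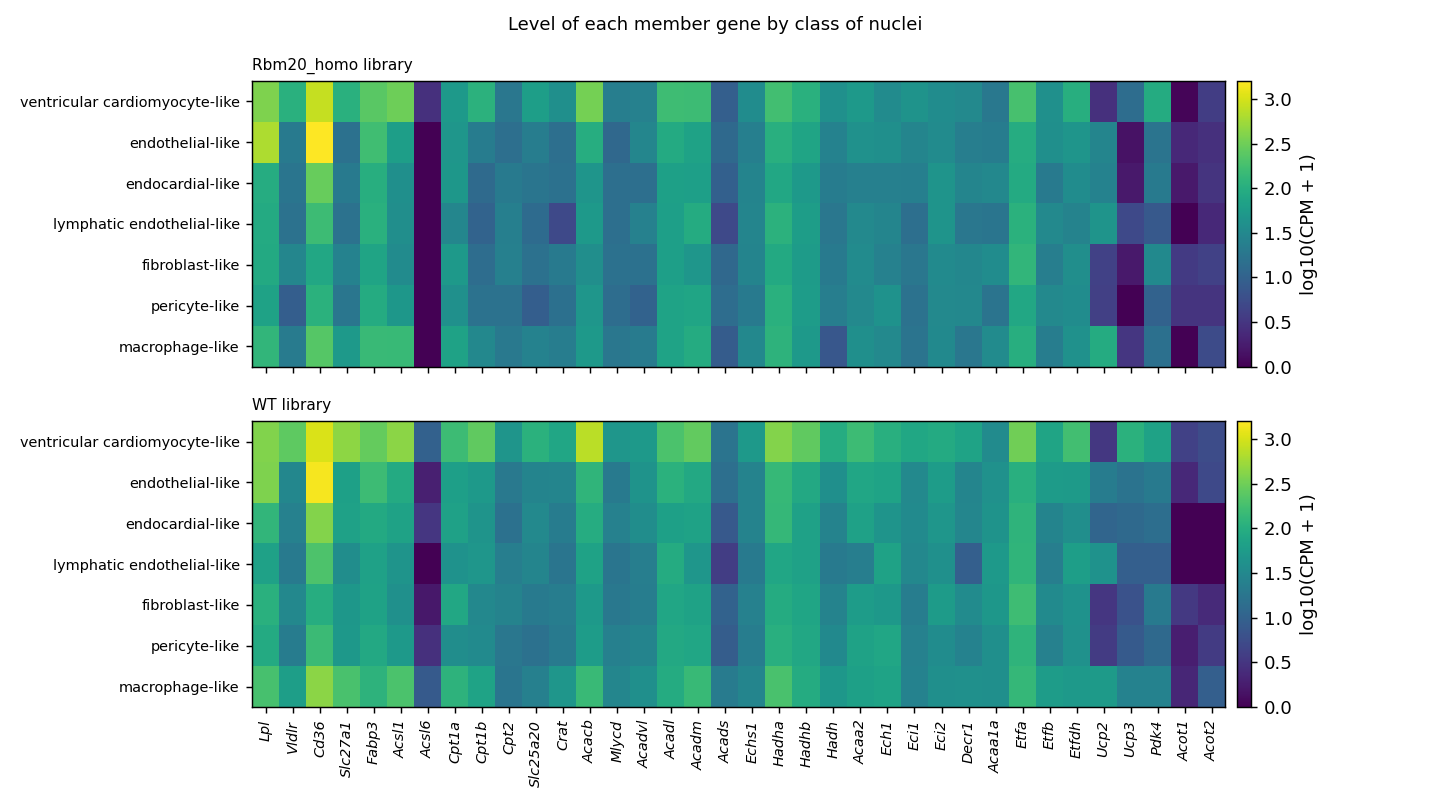
Level of each member (log10 of CPM plus 1, colour) in 7 classes of nuclei (rows) in the Rbm20_homo and WT libraries. The cardiomyocyte-like row is the brightest for 24 of 36 members in Rbm20_homo and 31 in WT, and Cd36 is brightest in the endothelial-like row in both. Colours are comparable down a column, not between genes.

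In fibroblast-like sums the members differed less. In Rbm20_homo over WT, 6 of 31 measured members were lower (all genes 8.81%) and 1 was higher (14.2%), with a median of -0.33 against 0.05 for all genes. The corrected library over Rbm20_homo had 9 of 32 higher (8.10%) and 1 lower (12.2%), with a median of 0.33. Rbm20_het over WT had 0 of 32 higher (3.97%) and 2 lower (3.96%). The corrected library over WT had 2 of 32 higher (6.57%) and 1 lower (5.58%). Both sets of counts are near the shares of all genes. Cpt1b was lowest in Rbm20_homo over WT, at -1.25 (-1.61 to -0.89), and Ech1 was at -1.02. Of these, Cpt1b never exceeded the highest percentage that a cardiomyocyte marker reached in fibroblast-like sums. Pdk4 went the other way, with 16.2 CPM in the corrected library, 31.8 in Rbm20_homo, 27.9 in Rbm20_het and 20.1 in WT, at 0.66 (0.33 to 1.01) in Rbm20_homo over WT and -0.97 in the corrected library over Rbm20_homo. Fibroblast-like nuclei of Rbm20_homo came mostly from a cluster of their own, with 2712 of that library's 3027.

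In endothelial-like sums 10 of 32 measured members were lower in Rbm20_homo over WT (all genes 9.33%) and 1 was higher (9.83%), with a median of -0.39 against -0.03. The corrected library over Rbm20_homo had 7 of 32 higher (7.99%) and 2 lower (9.97%), with a median of 0.30. Rbm20_het over WT had 0 of 33 higher (4.26%) and 5 lower (6.13%). The corrected library over WT had 0 of 33 higher (5.17%) and 2 lower (6.03%), near the shares of all genes. Slc27a1 stood at 46.5, 14.6, 46.7 and 64.8 CPM in the corrected, Rbm20_homo, Rbm20_het and WT libraries, at -2.15 (-2.74 to -1.59) in Rbm20_homo over WT, close to its value in cardiomyocytes. Its endothelial level was within the range that cardiomyocyte markers reached there. Lpl was the member that was higher, with 319 CPM in the corrected library, 643 in Rbm20_homo, 478 in Rbm20_het and 375 in WT. Its log2 ratio was 0.78 (0.65 to 0.90) in Rbm20_homo over WT and -1.01 (-1.12 to -0.90) in the corrected library over Rbm20_homo, and its level exceeded the range of cardiomyocyte markers in all 4 libraries.

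**Figure D5:**
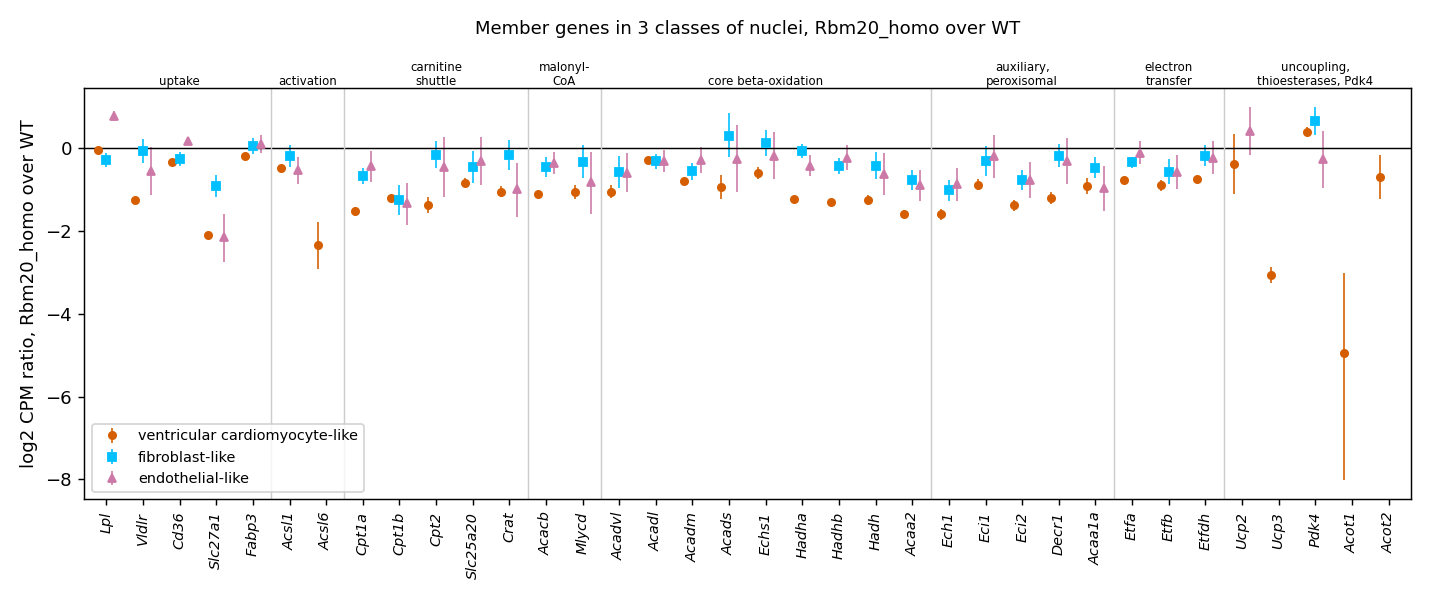
Log2 CPM ratio of Rbm20_homo over WT for each measured member in ventricular cardiomyocyte-like, fibroblast-like and endothelial-like sums, with 95% counting intervals. The median over measured members is -1.05 in cardiomyocyte-like sums, -0.33 in fibroblast-like sums and -0.39 in endothelial-like sums, and Lpl stands out at 0.78 in endothelial-like sums beside -0.05 in cardiomyocyte-like sums.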

How the data were processed

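The authors deposited unnormalised UMI counts, whole numbers for each gene in each nucleus, per the file headers. Cell Ranger 6.1.1, Seurat 4 and the build mm10 (GRCm38) are named in the submitters' processing notes, but 4.0.0 is the Cell Ranger version in the matrices' own headers. Intron counting, strand and barcode filters are not given in the sources used here.

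Barcodes with under 300 genes or over 5% mitochondrial UMIs were dropped, and the highest Scrublet scores (scanpy 1.11.5) were removed at 0.8% per 1000 barcodes, since Scrublet's own threshold marked 0 or 1 nuclei in 3 libraries. In the corrected library that threshold marked 2991 nuclei, while 1813 were removed here. Removal of the larger number was not run. Log-normalised counts of 2000 variable genes gave 30 components, 20 nearest neighbours and Leiden clusters at resolution 0.8 (leidenalg 0.10.2). A cluster was named when at least 3 markers of 1 type were at least 2-fold enriched and in at least 5% of its nuclei. Unnamed clusters held 10.7% of corrected, 13.2% of Rbm20_homo, 12.6% of Rbm20_het and 12.7% of WT nuclei and were left out.

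UMIs were summed by class and library and scaled to CPM of non-mitochondrial UMIs. Sums have exact Poisson and ratios exact conditional binomial 95% intervals. Ratio intervals were checked on simulated Poisson counts. These follow the model behind the intervals, so the check covers the computation and not spread between nuclei, hearts or libraries. TMM factors came from edgeR 4.0.16 on the summed counts. Promoters are from RefSeq (GRCm38.p6) and gene positions from GENCODE vM21, which matched 36 of 36 members.

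The members, their grouping by step and the list of 42 other genes were chosen with earlier results of these data known. All members are named, and of the other list the 6 genes with the largest absolute log2 ratio of Rbm20_homo over WT and at least 100 UMIs, of which some are not reported here.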

Additional observations from a re-analysis of the deposited data

Results flagged for a closer look

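Lpl, the lipase of circulating lipoproteins, differed between cell types in the sign of its ratio. In Rbm20_homo over WT its log2 ratio was 0.78 (95% counting interval 0.65 to 0.90) in endothelial-like sums and -0.05 (-0.10 to -0.00) in cardiomyocyte-like sums. For the corrected library over Rbm20_homo it was -1.01 (-1.12 to -0.90) in endothelial-like sums and 0.39 (0.35 to 0.44) in cardiomyocyte-like sums. The 2 comparisons share the Rbm20_homo library, there is 1 library per genotype, and the difference between cell types was not tested. In Rbm20_homo over WT the cardiomyocyte value turns to 0.12 with TMM scaling.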

How the results depend on the processing

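Among cardiomyocyte-like sums, the member median minus the all-gene median in Rbm20_homo over WT lay between -0.86 and -0.79 over the alternatives run, and scaling cannot move it. Fibroblast-like and endothelial-like counts were recomputed with other scalings only. No paired analysis was possible because each genotype had 1 library. With a 2-fold threshold 19 of 36 members were lower in Rbm20_homo over WT (all genes 9.14%), 1 of 36 in Rbm20_het over WT (1.63%) and 0 of 36 in the corrected library over WT (2.26%), and 8 of 35 were higher in the corrected library over Rbm20_homo (5.63%). Thinning nuclei to 1000 UMIs left 2 of 33 members lower in Rbm20_het over WT, against 8.13% of all genes, so that share was no longer above that of all genes. Without Malat1 in the denominator the member median was -0.87 in Rbm20_homo over WT and 0.58 in the corrected library over Rbm20_homo.

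With TMM scaling the member median in Rbm20_homo over WT was -0.87, and the step medians were -0.16 for uptake, -1.03 for the carnitine shuttle, -0.91 for malonyl-CoA control, -0.87 for core beta-oxidation, -1.03 for auxiliary enzymes and -0.59 for electron transfer. For the corrected library over Rbm20_homo they were 0.29 for uptake, 0.68 for the carnitine shuttle and 0.50 for electron transfer, and in the corrected library over WT 0.12 for uptake, -0.15 for core beta-oxidation and -0.091 for electron transfer. With median-of-ratios scaling the member median in Rbm20_homo over WT was -0.86, and the step medians were -0.15, -1.02, -0.90, -0.86, -1.03 and -0.58, listed as for TMM. For the corrected library over Rbm20_homo they were 0.28 for uptake, 0.67 for the carnitine shuttle, 0.64 for malonyl-CoA control, 0.63 for core beta-oxidation and 0.49 for electron transfer, and in the corrected library over WT 0.11, -0.15 and -0.092 for uptake, core beta-oxidation and electron transfer. These moves equal the shift of all genes between scalings.

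Of 62 member ratios past 1.5-fold over the 4 cardiomyocyte comparisons, 53 to 55 were still past 1.5-fold under each scaling, which moves every gene by 1 amount. No doublet removal and Leiden resolution 1.6 kept 62 past it. Thinning gave values for 54, of which 48 were past it, and the mitochondrial range below for 58, of which 51 were, with no change of sign. Restricting nuclei to those with 0 mitochondrial UMIs gave no value, since it left 23 corrected, 55 Rbm20_homo, 4 Rbm20_het and 12 WT nuclei. A range of 0.05% to 0.15% mitochondrial UMIs, chosen after seeing the data, gave 26 of 34 members lower in Rbm20_homo over WT (all genes 20.2%), with a median of -0.94. Genes with under 50 UMIs, such as Acot1 in Rbm20_homo and Ucp2, are limited by depth.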

Other observations

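Fabp3, the cytosolic fatty acid carrier, had log2 ratios of Rbm20_het over WT below 0 in each of the 3 classes compared. They were -0.50 (under 1.5-fold) in cardiomyocyte-like, -0.80 in fibroblast-like and -0.81 in endothelial-like sums. In Rbm20_homo over WT Fabp3 was under 1.5-fold in cardiomyocyte-like sums. Cardiomyocyte markers stood at 6.73% of their cardiomyocyte level in fibroblast-like sums of Rbm20_het and 6.99% in WT. In endothelial-like sums they stood at 11.9% in Rbm20_het and 13.8% in WT. The part of such RNA in the Fabp3 values was not tested.

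Lpl and Cd36 were higher in fibroblast-like nuclei of the corrected library than in those of Rbm20_homo, by 1.02 and 0.94 on the log2 scale. Fibroblast-like sums held cardiomyocyte markers at 9.42% of the cardiomyocyte level in the corrected library and 6.61% in Rbm20_homo, and their part in these values was not tested.

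Of the corrected library, 1204 cardiomyocyte-like nuclei had a UMI of a base editor feature, with a median of 5304.5 UMIs per nucleus, and 1848 had none, with a median of 4006.5. The members summed to 6272 CPM in nuclei with a UMI and to 5934 CPM in those without, both above the 3966 CPM of Rbm20_homo. Whether a nucleus has such a UMI goes with its depth, and the part of depth was not tested.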
